A study of Homo sapiens with 12 samples.

Results

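The genes described here encode the kinases that phosphorylate the translation initiation factor eIF2, its alpha subunit, the regulatory subunits of the phosphatase that reverses the phosphorylation, and proteins that report stress to the kinases. The 10 genes were taken by name, and every one was among the 17786 gene identifiers of the count table and the 13598 that passed a filter on low counts. They were measured by poly(A) RNA sequencing of K562, an established human line of chronic myelogenous leukaemia with erythroid features, kept in RPMI-1640 with 5% FBS. One group was left untreated, another was given 2 mM alpha-ketobutyrate (AKB) for 24 h and another 2 mM pyruvate for 24 h, with 4 libraries in each. AKB and pyruvate are 2-oxo acids that can accept electrons from NADH, which is how the study's title describes them, and AKB has 1 more carbon in its chain. All 3 groups are of the same line and medium, and separate cultures within a group are not named in the labels, so p-values measure the spread between these libraries, which may be technical.

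When eIF2 is phosphorylated on its alpha subunit it blocks its own exchange factor, eIF2B, so that most translation slows while a few mRNAs, among them that of the transcription factor ATF4, are translated more. Separate kinases respond to separate stresses: HRI (encoded by EIF2AK1) to haem shortage and mitochondrial stress, PERK (EIF2AK3) to unfolded proteins in the endoplasmic reticulum, and GCN2 (EIF2AK4) to shortage of amino acids. Erythroid cells are known for HRI, which matches globin synthesis to the supply of haem. These proteins are regulated largely by phosphorylation, cleavage and binding, which mRNA levels do not measure.

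The promoters of 9 of the 10 genes were found in RefSeq (GRCh38.p14, 250 bases before to 50 after the start) and were searched on both strands for motifs known from stress-responsive genes. The core of the CCAAT/enhancer binding protein and ATF response element, TGATGNAA, occurred in 1 of the 9, against 3.62% of all 35116 promoters. The cAMP response element, TGACGTCA, also occurred in 1 of the 9, against 1.85% of all, and the ER stress response element in 0 of the 9, against 0.0769%. Both matches were in genes of the phosphatase subunits, whose levels are given below, and neither overlaps another of these motifs. The stretches around them are printed 5′ to 3′ on the strand of the gene with the motif in capitals. That of PPP1R15B starts 227 bases before the gene's start (stretch at chr1:204412017-204412064, minus strand). That of PPP1R15A starts 58 bases before its start (stretch at chr19:48872343-48872390, plus strand).
PPP1R15B: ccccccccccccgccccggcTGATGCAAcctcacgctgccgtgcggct
PPP1R15A: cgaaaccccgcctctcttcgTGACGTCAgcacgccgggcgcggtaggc
A match describes the sequence and says nothing of whether a factor binds there.

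Libraries held 15353200 to 21301073 counts. Pyruvate replicates 3 and 4 were the deepest and stood apart along GC content: the slope of log2 level on GC content, per 10 percentage points and set against the average library, was 0.33 and 0.35 there and −0.15 to 0.014 elsewhere. For this reason values are also given below without these libraries, or with an offset that removes each library's relation to GC content. All 7 K562 markers were present, summing in CPM (counts scaled to library size) to 13187 to 15162 in untreated libraries, 14547 to 16697 with AKB and 10965 to 12700 with pyruvate. Of the lymphocyte markers 4 of 5 had a row, summing to 2.71 to 3.65, 4.30 to 4.92 and 3.86 to 4.68 CPM, with CD3E and CD79A at 0 in some libraries. Of the fibroblast markers 4 of 5 had a row, summing to 7.51 to 10.8, 9.51 to 12.2 and 7.72 to 9.53 CPM. The 3 of 4 monocyte markers with a row summed to 30.1 to 37.4, 42.5 to 53.3 and 28.7 to 35.7 CPM. CD14 and CSF1R stayed at or below 0.847 and 0.163 CPM, while LYZ ran from 28.3 to 52.4 CPM. LYZ was higher with AKB (47.2 ± 4.97 against 33.5 ± 2.86 CPM, edgeR adjusted p = 0.0308). Of the K562 markers, the embryonic globin gene HBE1 was higher with AKB than in untreated cells (2864 ± 118 against 2140 ± 71.1 CPM, adjusted p = 0.00146), and the fetal globin genes HBG1 (2520 ± 160 against 3124 ± 222 CPM, adjusted p = 0.0489) and HBG2 (4117 ± 246 against 5195 ± 285 CPM, adjusted p = 0.0206) were lower with pyruvate, though neither passed without pyruvate replicates 3 and 4 (adjusted p = 0.204 and 0.0846). HBG1 and HBG2 are near-identical copies, so the share of each is uncertain. The part of these markers in the results below was not tested.

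In untreated cells the mRNA of HRI stood highest of the 10 per kilobase of the longest transcript. The order of genes on this scale depends on the transcript taken, which the SD does not measure. EIF2AK1 stood at 87.1 ± 2.37 CPM per kb (SD, n = 4 here and for every mean below), above 95.1% of the 13047 genes ranked. GCN1, the ribosome-bound activator of GCN2, followed at 58.2 ± 2.35 CPM per kb, then EIF2S1, which encodes eIF2 alpha, at 46.7 ± 1.63 and PPP1R15B at 30.3 ± 1.38. Among these 4 no neighbouring ranges overlapped. A middle set followed with overlapping neighbours: EIF2AK4 at 13.9 ± 0.310 CPM per kb, PPP1R15A at 13.4 ± 0.885, DELE1 at 12.7 ± 1.258 and OMA1 at 10.8 ± 0.602. Lowest were EIF2AK3 at 4.36 ± 0.235 and IMPACT at 4.11 ± 0.250 CPM per kb, whose ranges overlapped and which stood above 38.3% and 37.0% of genes. Per kilobase the mRNA of HRI was thus the highest of the 3 kinases and that of PERK the lowest, with no overlap between them. The kinase PKR (EIF2AK2), which senses double-stranded RNA and is not among the 10, was at 88.3 ± 1.65 CPM untreated, 90.9 ± 1.62 with AKB and 78.6 ± 11.3 with pyruvate (edgeR adjusted p = 0.899 and 0.208 against untreated). Its pyruvate replicates stood at 89.9, 86.4, 66.5 and 71.5 CPM, so only replicates 3 and 4 lay below the untreated range, and without them its log2 difference was −0.0026 (adjusted p = 0.988).

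**Figure D1:**
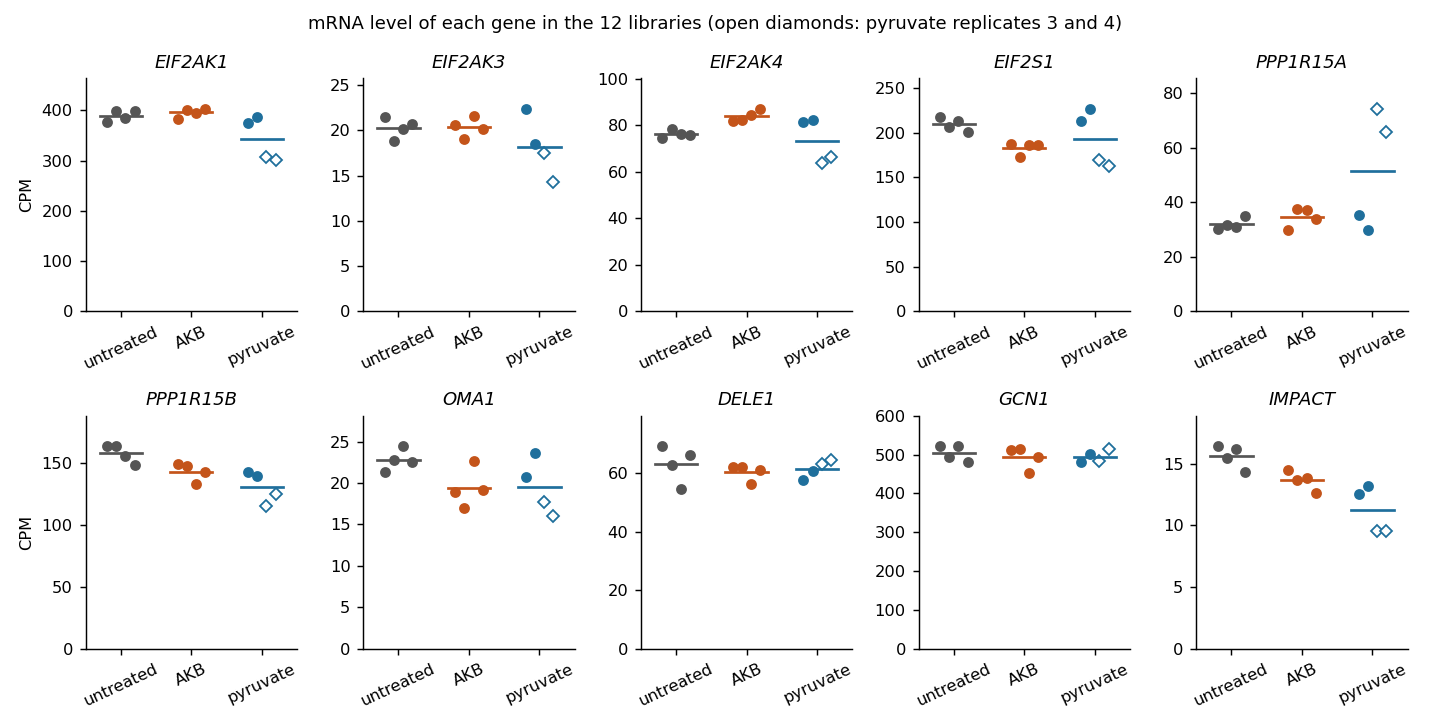
Level of each of the 10 genes in CPM on a linear axis from 0, with a point per library and a line at the mean of each group of 4. Open diamonds are pyruvate replicates 3 and 4, which do not overlap pyruvate replicates 1 and 2 for any gene but GCN1. For PPP1R15A they stand at 66.0 and 74.3 CPM beside 29.8 and 35.2 CPM. These pairs of libraries differ along GC content over all genes, and the share of all genes whose pairs do not overlap was not counted.

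None of the 10 genes passed the test in any comparison when all 12 libraries were fitted together (edgeR's quasi-likelihood test, adjusted p below 0.05 over all 13598 genes). With AKB against untreated, 0 of 10 were called, where 1.97% of all genes were, and 0 of 10 had an unadjusted p below 0.05, where 13.2% did. DESeq2's Wald test also called 0 of 10, where 3.96% of genes were called. With AKB the count at an unadjusted edgeR p below 0.05 depended on the fit. It was 5 of 10 with only the 8 libraries compared, 5 without pyruvate replicates 3 and 4, and 4 with the GC-content offset. The share of all genes at that p is not given for these fits, which called 10.1%, 9.17% and 8.53% of all genes. With pyruvate against untreated, 0 of 10 were called against 1.95% of all genes, while 4 of 10 had an unadjusted p below 0.05 against 28.9%, and DESeq2's Wald test called 3 (PPP1R15A higher, PPP1R15B and IMPACT lower) against 13.7%. For AKB against pyruvate edgeR called 0 against 3.13%, 4 of 10 had an unadjusted p below 0.05 against 24.2%, and the Wald test called 0 against 11.3%. The median log2 difference of the 10 was −0.049 with AKB and −0.14 with pyruvate, beside 0.0061 and −0.0082 over all genes. Without pyruvate replicates 3 and 4 the median with pyruvate was −0.034, beside −0.0049 over all genes. The 2 treatments share the untreated libraries, so these values are not independent. In bulk RNA less mRNA per cell and fewer cells holding it cannot be told apart.

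**Figure D2:**
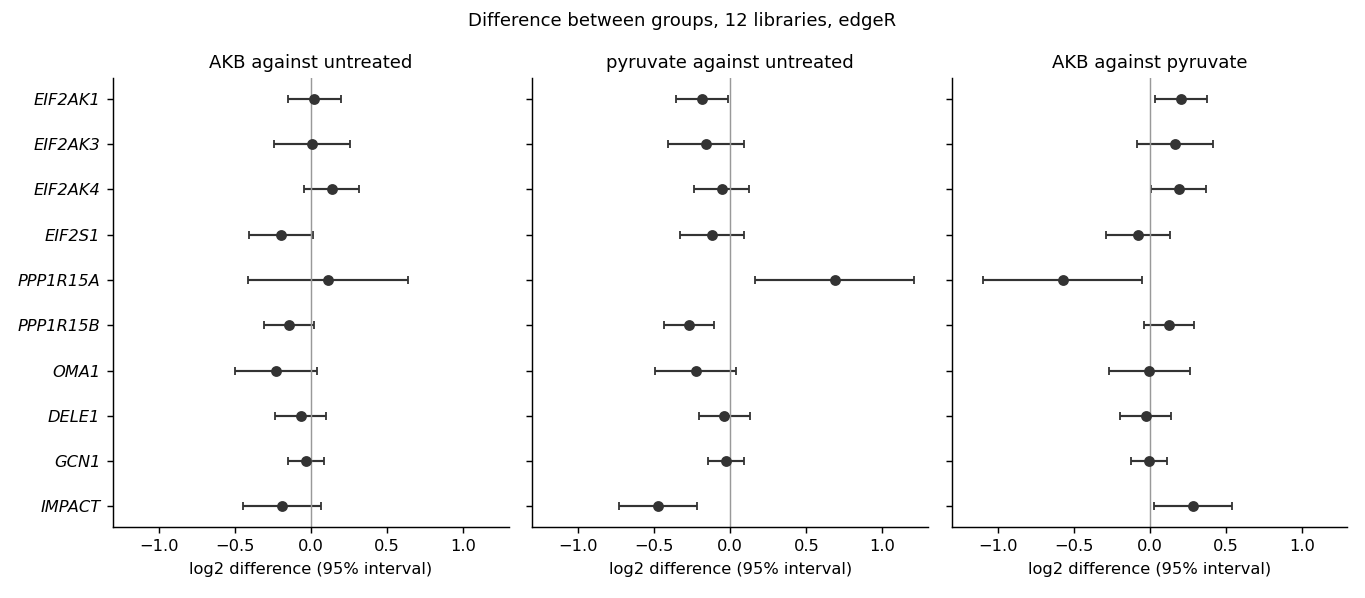
Log2 difference between groups for each gene with its 95% interval, in 3 panels for each treatment over untreated and for AKB over pyruvate, from the edgeR fit of 12 libraries. With AKB each interval includes 0, and with pyruvate the intervals of EIF2AK1, PPP1R15A, PPP1R15B and IMPACT do not, though none has an adjusted p below 0.05.

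Of the kinases, EIF2AK4 was the one whose untreated and AKB libraries did not overlap. GCN2, its product, binds uncharged tRNA when amino acids run short. The untreated libraries stood at 74.6, 78.6, 76.4 and 75.9 CPM and those with AKB at 81.8, 82.2, 84.6 and 87.1 CPM. All 4 treated libraries were thus above all 4 untreated, as were 8.74% of all genes. The difference was 1.10-fold (log2 0.14, 95% interval −0.045 to 0.32, edgeR adjusted p = 0.535). When the spread was estimated without pyruvate replicates 3 and 4, the same difference of 0.14 had an SE of 0.037 in place of 0.083 and passed the test (adjusted p = 0.0446), where 9.17% of genes did. With only the 8 libraries compared it missed narrowly (adjusted p = 0.0529). With pyruvate, EIF2AK4 stood at 81.2 and 82.5 CPM in replicates 1 and 2 and at 63.9 and 66.2 CPM in replicates 3 and 4. The first pair lay above every untreated library and the second pair below every one, so the group's log2 difference of −0.057 (adjusted p = 0.65) is a mean of values on both sides. Without replicates 3 and 4 it was 0.10 (95% interval 0.0012 to 0.20, adjusted p = 0.347).

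EIF2AK1, encoding HRI, differed little between untreated and AKB cells. It stood at 377, 398, 385 and 398 CPM untreated and at 383, 402, 396 and 403 CPM with AKB. The groups overlapped and the 95% interval of the ratio ran from 0.903 to 1.14 (adjusted p = 0.943). With pyruvate it stood at 376, 387, 308 and 300 CPM in replicates 1 to 4, so that only replicates 3 and 4 lay below the untreated range. The log2 difference of −0.18 (SE 0.079) had an adjusted p of 0.154. It was −0.029 (adjusted p = 0.816) without replicates 3 and 4, and passed the test without pyruvate replicate 2 (−0.25, adjusted p = 0.0344). In that last fit 3611 genes were called, against 265 in the fit of 12 libraries. Exons of EIF2AK1 share 532 bases (9.59% of them) with AIMP2 on the opposite strand, at a mean of 34.0 CPM, and the sources used here do not say whether counting used the strand.

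EIF2AK3, encoding PERK, had ranges that overlapped in every comparison: 18.9 to 21.4 CPM untreated, 19.1 to 21.6 with AKB and 14.3 to 22.4 with pyruvate. Its mean was 20.3 ± 1.09, 20.4 ± 1.05 and 18.2 ± 3.32 CPM. The log2 difference with AKB was 0.0075 (95% interval −0.24 to 0.26, adjusted p = 0.99), whose sign depended on the filter on low counts. The authors' deposited table gives 0.23 (SE 0.17, adjusted p = 0.567) for untreated over AKB. With pyruvate it was −0.16 (adjusted p = 0.351), and 0.011 without pyruvate replicates 3 and 4. An annotated antisense RNA, not analysed here, shares 781 bases (14.4%) of its exons.

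EIF2S1 missed the threshold with AKB in the fit of 12 libraries but was called lower in several alternative fits, more than any other of the 10 genes in that comparison. It encodes eIF2 alpha, the subunit that all these kinases phosphorylate. Untreated libraries stood at 218, 207, 213 and 201 CPM and those with AKB at 188, 173, 186 and 187 CPM. Every AKB library was below every untreated one, as for 8.41% of all genes, and AKB replicate 2 was the lowest of the 12 apart from pyruvate replicates 3 and 4. The level was 1.14-fold lower (183 ± 7.12 against 209.6 ± 7.33 CPM, log2 −0.19, SE 0.097, 95% interval −0.40 to 0.017, edgeR adjusted p = 0.434).

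The alternative fits that called EIF2S1 gave differences of similar size with smaller SEs. The log2 difference was −0.20 (SE 0.042, adjusted p = 0.0175) with only the 8 libraries compared, where 10.1% of genes were called. It was −0.19 (SE 0.042, adjusted p = 0.0163) without those pyruvate libraries, and −0.15 (SE 0.035, adjusted p = 0.0245, with 8.53% of genes called) with the GC-content offset. It did not pass with DESeq2's size factors, without a filter, with DESeq2's Wald test (adjusted p = 0.361) or with any single library left out (0.26 to 0.694). The authors' deposited table gives untreated over AKB as log2 0.30 with an SE of 0.054 and an adjusted p of 4.68e-06, among the 634 genes (4.90% of 12945) called there. EIF2S1 has a GC content of 39.2%, and its exons share 269 bases (4.76%) with ATP6V1D on the opposite strand, at a mean of 32.1 CPM.

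With pyruvate, EIF2S1 split. Replicates 1 and 2 stood at 214 and 227 CPM, within or above the untreated range, and replicates 3 and 4 at 169 and 163 CPM, below every other library. The group's log2 difference from untreated was −0.12 (95% interval −0.33 to 0.093, adjusted p = 0.41). It turned to 0.073 (95% interval −0.038 to 0.18, adjusted p = 0.561) without replicates 3 and 4, and to 0.094 (adjusted p = 0.104) with the GC-content offset. The authors' deposited table gives 0.0076 for untreated over pyruvate, with an adjusted p of 0.947. Between replicates 3 and 4 and replicates 1 and 2 the log2 difference was −0.41. The value smoothed over all genes at the same GC content was −0.43.

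**Figure D3:**
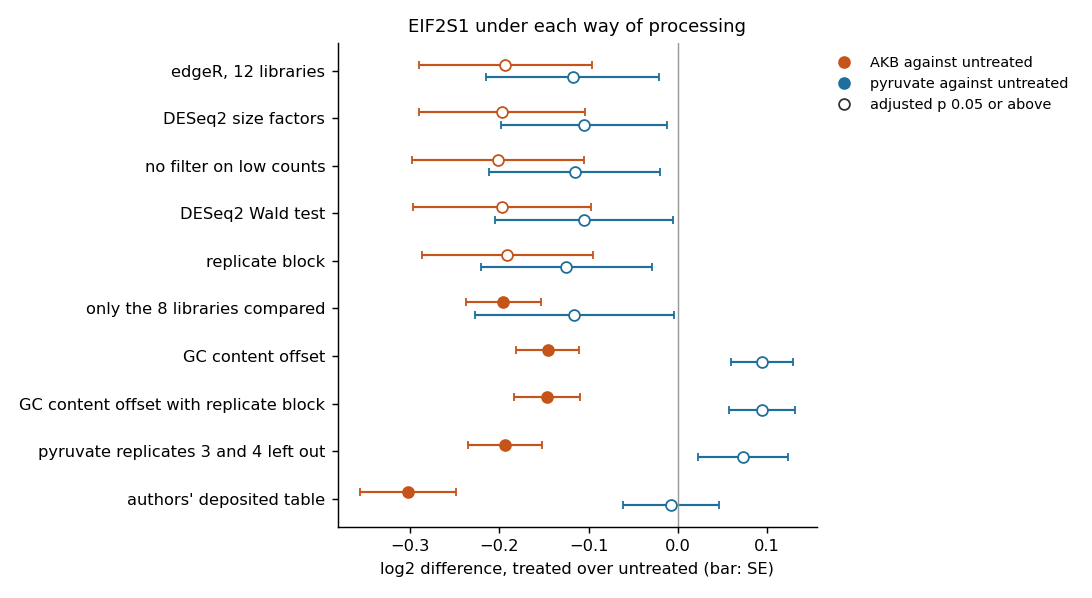
Log2 difference of EIF2S1 against untreated for AKB and for pyruvate under each way of processing, with bars of 1 SE, filled where the adjusted p was below 0.05 and with the authors' deposited table in the bottom row. The AKB values plotted lie between −0.15 and −0.20 in the fits of the counts and at −0.30 in the authors' table, while those of pyruvate lie on both sides of 0.

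The phosphatase subunit genes had estimates of opposite sign with pyruvate. PPP1R15A encodes GADD34, the stress-inducible subunit that brings protein phosphatase 1 to eIF2 alpha. It stood at 30.1, 31.7, 31.1 and 35.0 CPM untreated, at 29.7, 37.7, 37.2 and 33.8 CPM with AKB and at 35.2, 29.8, 74.3 and 66.0 CPM with pyruvate. Pyruvate replicates 3 and 4 were far above all other libraries, and replicates 1 and 2 lay among the untreated and AKB values. The log2 difference of pyruvate from untreated was 0.69 (1.61-fold, SE 0.24, 95% interval 0.16 to 1.21, edgeR adjusted p = 0.106). Without replicates 3 and 4 it was 0.025 (95% interval −0.21 to 0.26, adjusted p = 0.943). It passed with DESeq2's Wald test (0.70, adjusted p = 0.0324). Without pyruvate replicate 1 (0.84, adjusted p = 0.0343, 2631 genes called) or 2 (0.87, adjusted p = 0.0215, 3611 genes called) it also passed. The authors' deposited table gives −0.57 (SE 0.21, adjusted p = 0.0596) for untreated over pyruvate, which did not pass. With AKB the difference was 0.11 (95% interval −0.41 to 0.64, adjusted p = 0.9), an interval that spans a ratio of 0.752 to 1.56.

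The split of PPP1R15A within the pyruvate group was larger than the value smoothed over all genes at its GC content. Replicates 3 and 4 stood 2.16-fold above replicates 1 and 2 (70.2 against 32.5 CPM), where the smoothed value at 58.8% GC was 1.36-fold. The spread of genes around the smoothed value was not measured. With the GC-content offset the difference from untreated was 0.43 (95% interval 0.10 to 0.76, adjusted p = 0.087). GCN1, at 56.3% GC, differed by 0.024 on the log2 scale between these pairs of libraries, against a smoothed value of 0.33 at its GC content.

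**Figure D4:**
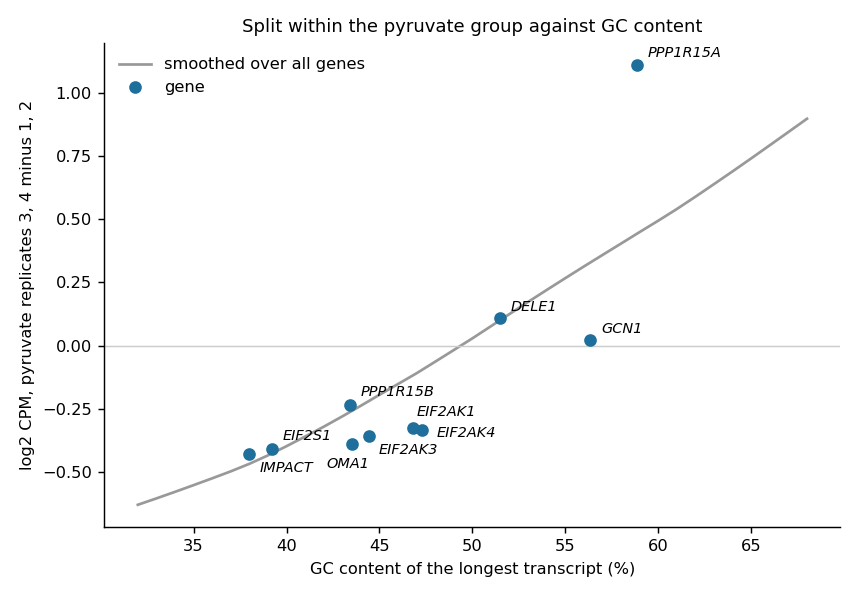
Log2 difference between pyruvate replicates 3 and 4 and pyruvate replicates 1 and 2 for each gene, against the GC content of its longest transcript, with the smoothed value over all genes as a line. IMPACT, EIF2S1, PPP1R15B and DELE1 lie near the line, PPP1R15A lies above it at 1.11 and GCN1 below it at 0.024. EIF2AK1 and EIF2AK4 also lie below it, each at −0.33 where the line is at −0.12 and −0.096. EIF2AK3 (−0.36, line at −0.22) and OMA1 (−0.39, line at −0.26) lie less far below.

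PPP1R15B encodes CReP, the subunit present without stress. It stood at 164, 164, 156 and 149 CPM untreated, at 149, 148, 133 and 143 CPM with AKB and at 143, 140, 116 and 125 CPM with pyruvate. All 4 pyruvate libraries lay below all 4 untreated, as for 6% of all genes, and those with AKB overlapped the untreated in 1 library. The log2 difference with pyruvate was −0.27 (1.21-fold lower, SE 0.075, 95% interval −0.43 to −0.11, edgeR adjusted p = 0.07). It passed with DESeq2's Wald test (−0.26, adjusted p = 0.0117). Without pyruvate replicate 1 (adjusted p = 0.0213, 2631 genes called) or replicate 2 (adjusted p = 0.025, 3611 genes called) it also passed. It did not pass with the GC-content offset (−0.15, adjusted p = 0.0542) or without replicates 3 and 4 (−0.16, 95% interval −0.29 to −0.034, adjusted p = 0.241). The authors' deposited table gives 0.21 (SE 0.063, adjusted p = 0.0145) for untreated over pyruvate, among 1473 of 12261 genes called there. With AKB the log2 difference was −0.14 (95% interval −0.31 to 0.019, adjusted p = 0.454).

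The relay from mitochondria to HRI was measured through OMA1, the inner-membrane protease, and DELE1, the protein that it cleaves and that then binds HRI. OMA1 stood at 21.4, 22.8, 24.5 and 22.6 CPM untreated and at 19.0, 17.0, 22.7 and 19.1 CPM with AKB. AKB replicate 3 lay within the untreated range and the other AKB libraries below it. The log2 difference of −0.23 (SE 0.12, 95% interval −0.50 to 0.039) had an adjusted p of 0.469. With pyruvate OMA1 ran from 16.1 to 23.6 CPM with a log2 difference of −0.23 (adjusted p = 0.229), which became −0.041 (adjusted p = 0.913) without replicates 3 and 4. DAB1, not analysed here, shares 257 bases (6.91%) of exon with OMA1 on the same strand. DELE1 was close in the 3 groups: 63.2 ± 6.25 CPM untreated, 60.4 ± 2.83 with AKB and 61.5 ± 3.04 with pyruvate. Its 95% interval ran from −0.23 to 0.10 with AKB and from −0.21 to 0.13 with pyruvate on the log2 scale (adjusted p = 0.796 and 0.742). With pyruvate its log2 difference was −0.039, and −0.095 (95% interval −0.28 to 0.093, adjusted p = 0.681) without replicates 3 and 4. Replicate spread was widest in the untreated group, from 54.7 to 69.2 CPM.

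GCN1 and IMPACT act on GCN2 in opposite ways, GCN1 as its activator and IMPACT as a competitor for the contact between them. GCN1 stood at 505 ± 20.4 CPM untreated, 494 ± 29.1 with AKB and 495 ± 15.9 with pyruvate, with overlapping libraries. The ratio to untreated lay between 0.90 and 1.06 with AKB and between 0.903 and 1.07 with pyruvate (95% intervals, adjusted p = 0.874 and 0.747). With pyruvate its log2 difference of −0.027 became −0.17 with the GC-content offset (ratio 0.783 to 1.003, adjusted p = 0.187) and −0.039 without replicates 3 and 4 (95% interval −0.17 to 0.089), and passed the test in neither. IMPACT stood at 16.4, 15.5, 16.2 and 14.3 CPM untreated, at 14.5, 13.7, 13.9 and 12.6 CPM with AKB and at 12.6, 13.2, 9.55 and 9.57 CPM with pyruvate. The pyruvate libraries all lay below the untreated, as for 6% of all genes. The AKB libraries overlapped the untreated through AKB replicate 1 and untreated replicate 4.

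IMPACT had the smallest adjusted p of the 10 with pyruvate. It was 1.39-fold lower (log2 −0.48, SE 0.12, 95% interval −0.73 to −0.22, edgeR adjusted p = 0.0571), just above the threshold. It passed with the GC-content offset, where the difference shrank to −0.24 (SE 0.064, adjusted p = 0.0371) and 9.6% of genes were called, and with DESeq2's Wald test (−0.47, adjusted p = 0.00539). It passed also without pyruvate replicate 1 (adjusted p = 0.0202, 2631 genes called) or replicate 2 (adjusted p = 0.0207, 3611 genes called). It did not pass without replicates 3 and 4 together (−0.27, 95% interval −0.48 to −0.066, adjusted p = 0.221, 0.71% of genes called). The authors' deposited table gives 0.18 for untreated over pyruvate, with an adjusted p of 0.471. IMPACT has the lowest GC content of the 10 (38.0%). Between pyruvate replicates 3 and 4 and replicates 1 and 2, the value smoothed over all genes at that GC content was −0.47. IMPACT differed by −0.43. With AKB its log2 difference was −0.19 (95% interval −0.45 to 0.065, adjusted p = 0.54).

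AKB and pyruvate were compared directly at 2 mM and 24 h, the single pair of compounds in the study, and the members' differences are adjusted over all genes. All 10 genes had overlapping libraries, where 11.6% of all genes did not overlap. Higher estimates with AKB were those of EIF2AK1 (0.21, 95% interval 0.036 to 0.38, adjusted p = 0.14), EIF2AK4 (0.19, 0.012 to 0.37, adjusted p = 0.181) and IMPACT (0.29, 0.029 to 0.54, adjusted p = 0.167). That of PPP1R15A was lower (−0.57, 95% interval −1.09 to −0.051, adjusted p = 0.172). Without pyruvate replicates 3 and 4 these 4 differences were 0.053, 0.035, 0.083 and 0.089, with adjusted p from 0.507 to 0.73. EIF2S1 went the other way: its log2 difference of −0.076 (95% interval −0.29 to 0.13, adjusted p = 0.643) became −0.27 (95% interval −0.38 to −0.16, adjusted p = 0.0178, 4.36% of genes called) without those libraries. With the GC-content offset it was −0.24 (SE 0.035, adjusted p = 0.00167), where 14.6% of genes were called. The authors' deposited table gives −0.29 (SE 0.054, adjusted p = 1.29e-05) for EIF2S1 in AKB over pyruvate, among 1266 of 12604 genes called there. For EIF2AK1, EIF2AK4 and PPP1R15A that table gives 0.29, 0.20 and −0.46 (adjusted p from 0.157 to 0.444). For IMPACT it gives −0.057 (adjusted p = 0.874), opposite in sign to the fit of 12 libraries.

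Among calls that turned on a library or a setting, EIF2AK1 was also higher with AKB than with pyruvate under the GC-content offset (0.18, adjusted p = 0.0477). Without pyruvate replicate 2, EIF2AK1 (0.27, adjusted p = 0.0349), PPP1R15A (−0.76, adjusted p = 0.0309) and IMPACT (0.38, adjusted p = 0.0477) passed in this comparison. Over all genes 2111 were called there, against 426 in the fit of 12 libraries. The remaining genes gave intervals on both sides of 0 on the log2 scale: −0.084 to 0.42 for EIF2AK3, −0.034 to 0.29 for PPP1R15B, −0.27 to 0.27 for OMA1, −0.19 to 0.14 for DELE1 and −0.12 to 0.12 for GCN1. Without pyruvate replicates 3 and 4 their differences were −0.0040, 0.016, −0.19, 0.029 and 0.0067, and with the GC-content offset 0.10, 0.037, −0.083, 0.012 and 0.094, with no adjusted p below 0.05.

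Of 36 further genes of the pathway (the kinase PKR and kinase regulators, GCN2 activators, eIF2 and eIF2B subunits, phosphatase catalytic subunits, and inner-membrane proteases with their partners), 0 were called with AKB and 0 with pyruvate, and 1 was lower with AKB than with pyruvate (edgeR). The shares of all genes called were 1.97%, 1.95% and 3.13%. At an unadjusted p below 0.05 they numbered 3, 10 and 12 of 36, where 13.2%, 28.9% and 24.2% of all genes did. DESeq2's Wald test called 0, 8 (3 higher, 5 lower) and 7 (all lower), against 3.96%, 13.7% and 11.3% of all genes. The gene called by edgeR for AKB against pyruvate was PHB1, a scaffold protein of the mitochondrial inner membrane (215 ± 3.48 against 257 ± 22.2 CPM, log2 −0.26, SE 0.062, adjusted p = 0.0471), which did not pass without pyruvate replicates 3 and 4 (−0.15, adjusted p = 0.0619). Its call was also lost without a filter on low counts, with only the 8 libraries compared, and on leaving out any untreated or AKB library, or pyruvate replicate 3 or 4. It was kept with DESeq2's size factors (461 genes called), by DESeq2's Wald test (11.3% of genes called) and with the GC-content offset (14.6%). It was also kept with the offset and a term for replicate number (1971 genes called). Without pyruvate replicate 1 or 2 it was kept too, where 1770 and 2111 genes were called. The medians of the 36 were −0.058, −0.019 and −0.014, beside 0.0061, −0.0082 and 0.025 for all genes. Without pyruvate replicates 3 and 4 they were −0.059, 0.046 and −0.11, beside 0.0058, −0.0049 and 0.0049 for all genes. With the GC-content offset edgeR called 2 of the 36 (1 higher, 1 lower), 4 (2 higher, 2 lower) and 6 (all lower). The shares of all genes called there were 8.53%, 9.6% and 14.6%.

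Without pyruvate replicates 3 and 4, the 36 genes gave 2, 1 and 6 calls in the 3 comparisons, where 9.17%, 0.71% and 4.36% of all genes were called. With AKB 2 were lower: EIF2S2, which encodes eIF2 beta (276 ± 19.1 against 333 ± 10.7 CPM, log2 −0.27, SE 0.049, adjusted p = 0.00728), and EIF2B3, a subunit of the exchange factor (91.5 ± 2.20 against 101.6 ± 2.74 CPM, −0.15, adjusted p = 0.0339). EIF2S2 passed with the GC-content offset too (−0.25, adjusted p = 0.0327), as it did there with pyruvate (−0.24, adjusted p = 0.0365), while in the fit of 12 libraries without an offset its adjusted p with AKB was 0.221. The gamma subunit gene EIF2S3 was at 608 ± 11.6 against 642 ± 9.81 CPM (−0.080, adjusted p = 0.164). With pyruvate 1 was higher, the chaperone gene HSPA8 (3049 ± 251 in 2 libraries against 2521 ± 35.1 CPM, adjusted p = 0.0421). With AKB against pyruvate 6 were lower: the chaperone genes HSPA8 (−0.38, adjusted p = 0.00577), HSP90AA1 (0.0207) and HSP90AB1 (0.0115), the exchange factor subunits EIF2B1 (0.0481) and EIF2B3 (0.0299), and CDC123, which helps to assemble eIF2 (0.0494).

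Further along the pathway, ATF4 mRNA was lower with both treatments. It stood at 356, 332, 333 and 344 CPM untreated, at 240, 247, 238 and 239 CPM with AKB and at 230, 249, 282 and 276 CPM with pyruvate. The treated libraries overlapped the untreated in neither case, as for 8.41% and 6% of all genes. Its edgeR adjusted p was 0.0023 and 0.0174. ASNS, asparagine synthetase and a gene that ATF4 induces, stood at 385 ± 26.9, 206 ± 2.33 and 169 ± 26.1 CPM (adjusted p = 0.000914 and 9.58e-05). Of 9 genes, ATF4 and 8 that it is known to induce, 8 could be tested, with medians of −0.70 and −0.69. Of these, 6 were called lower with each treatment (ATF4, ATF3, TRIB3, ASNS, PSAT1 and CHAC1). The shares of all genes called, higher or lower, were 1.97% and 1.95%. This list was written with earlier results of these data known. DDIT3 and SESN2, in the list too, were called lower with AKB without pyruvate replicates 3 and 4, and SESN2 with pyruvate, where CHAC1 was then not called. In that fit 9.17% of all genes were called with AKB and 0.71% with pyruvate. PPP1R15A, which is also known to be induced in this response, did not pass in the fit of 12 libraries, with estimates above 0 for both treatments (0.11 and 0.69). The latter, with pyruvate, was 0.025 without pyruvate replicates 3 and 4.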

How the data were processed

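Poly(A) RNA of 12 K562 libraries was measured, and groups and replicate numbers came from the labels. The deposited table holds estimated counts of each gene, which the authors obtained from Salmon 1.2.1, per the submitters' processing notes, which also name R 3.6.3 and DESeq2 1.26.0. The sources used here do not name the build, the annotation or the settings. Counts were whole, so rounding left them as they were. The authors' deposited tables of comparisons, hold, per the file headers, a mean normalised signal (baseMean), a log2 fold change with its SE on the log2 scale, a Wald statistic (a score) and p-values. Their fold changes differ by over 0.1 on the log2 scale from those of DESeq2 1.42.0 on the deposited counts in 23.6%, 46.8% and 43.3% of 13598 genes (untreated over AKB, untreated over pyruvate, AKB over pyruvate), and the sources used here do not say how they were fitted.

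Symbols were matched for 95.2% of 17786 identifiers, and length, GC content and coordinates came from GENCODE 29 on GRCh38 (95.0%). On it EIF2AK1 lies at chr7:6022244-6059230, EIF2AK3 at chr2:88556741-88627576, EIF2AK4 at chr15:39934146-40035591, EIF2S1 at chr14:67359997-67386516, PPP1R15A at chr19:48872392-48876057, PPP1R15B at chr1:204403387-204411791, OMA1 at chr1:58415384-58546802, DELE1 at chr5:141923808-141942047, GCN1 at chr12:120127203-120194710 and IMPACT at chr18:24426616-24453535, and counts are over whole genes.

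Genes were kept by filterByExpr by group (minimum count 10). edgeR 4.0.16 in R 4.3.3 fitted its quasi-likelihood test to the 12 libraries, TMM-scaled, with 1 term per group. A gene was called at a Benjamini-Hochberg adjusted p below 0.05 over the 13598 genes, and adjusted p-values are edgeR's unless another tool is named. SE is the log2 difference over the square root of F. Levels are CPM on TMM-scaled library sizes. The GC-content offset removes each library's lowess relation (span 0.3) to GC content. No 2 libraries of a group agreed within sampling noise.

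All 10 genes are named in each comparison, and other pathway genes where called in the fit of 12 libraries or without pyruvate replicates 3 and 4, with EIF2AK2, ATF4 and ASNS whatever their values. Members and lists were chosen with earlier results of these data known.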

Additional observations from a re-analysis of the deposited data

Results flagged for a closer look

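EIF2S1 in AKB replicate 2 stood at 172.7 CPM, away from the other 3 AKB libraries (186 to 188 CPM) by more of the group's range than Dixon's 95% limit allows. Chance marks about 1 in 20 groups, and 30 groups were looked at (10 genes in 3 groups). Without that library the log2 difference of EIF2S1 from untreated was −0.17 (edgeR adjusted p = 0.694).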

How the results depend on the processing

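Of 600 results for single genes under alternatives, 544 kept their direction and side of the threshold, 25 passed it in the same direction and 31 changed sign. Members called with AKB numbered 1 with only the 8 libraries compared, 1 with the GC-content offset, 1 with the offset and replicate block, and 2 without pyruvate replicates 3 and 4. With pyruvate they numbered 3 by DESeq2's Wald test, 2 with the replicate block and 1 with the offset, and for AKB against pyruvate 2 with the offset, 1 with offset and block and 1 without those libraries. With a library left out they ranged from 0 to 4 with pyruvate (3 without pyruvate replicate 1, 4 without replicate 2). For AKB against pyruvate they ranged from 0 to 3 (3 without pyruvate replicate 2). All genes called in those fits numbered 2631, 3611 and 2111 in turn. Genes called with AKB (268) became 539 by the Wald test, 158 with the block, 1339 with 8 libraries, 1160 with the offset, 944 with offset and block, and 1278 without pyruvate replicates 3 and 4. Those with pyruvate (265) became 152 without a filter, 1864 by the Wald test, 565 with the block, 16 with 8 libraries, 1306 with the offset, 1431 with offset and block, and 99 without those libraries. Those for AKB against pyruvate (426) became 214 without a filter, 1541 by the Wald test, 6 with 8 libraries, 1983 with the offset, and 1971 with offset and block. With a library left out, genes called with AKB ranged from 92 (without untreated replicate 3) to 357 (without pyruvate replicate 2), those with pyruvate from 32 (without untreated replicate 2) to 3611 (without pyruvate replicate 2), and those for AKB against pyruvate from 68 (without AKB replicate 1) to 2111 (without pyruvate replicate 2). The causes were not tested.

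Signs changed for EIF2AK3 with AKB without a filter (−0.00070). Without pyruvate replicates 3 and 4 they changed with pyruvate for EIF2AK3 (0.011), EIF2AK4 (0.10) and EIF2S1 (0.073), and for AKB against pyruvate for EIF2AK3 (−0.0040), PPP1R15A (0.089), DELE1 (0.029) and GCN1 (0.0067). With the offset, and with offset and block, they changed for EIF2S1 with pyruvate (0.094 and 0.094), and for AKB against pyruvate in DELE1 (0.012 and 0.0097) and GCN1 (0.094 and 0.098). With a library left out, values with both signs were those of EIF2AK3 (−0.026 to 0.038) and GCN1 (−0.055 to 0.012) with AKB, EIF2AK4 (−0.12 to 0.015) and DELE1 (−0.10 to 0.016) with pyruvate, and EIF2S1 (−0.16 to 0.011), OMA1 (−0.098 to 0.10), DELE1 (−0.064 to 0.00030) and GCN1 (−0.031 to 0.030) for AKB against pyruvate. None of these passed the test on both sides.

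Replicate numbers did not pair the libraries: correlations of same-numbered deviations ran from −0.11 to 0.25. With the offset and block EIF2S1 was called lower with AKB than in untreated cells (−0.15, adjusted p = 0.0459) and than with pyruvate (−0.24, adjusted p = 0.00566). Adding the block to the offset ended the calls of IMPACT with pyruvate (adjusted p = 0.0587), of EIF2AK1 for AKB against pyruvate (0.0622) and of EIF2S2 with AKB, and the block alone ended that of PHB1. With the replicate block alone PPP1R15B (−0.28, adjusted p = 0.0413) and IMPACT (−0.48, adjusted p = 0.0408) passed with pyruvate, and OMA1 for AKB against pyruvate was 0.00050. Depth of 15353200 to 21301073 counts left IMPACT, the lowest gene, at 9.55 to 16.4 CPM.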
